A study of Mus musculus with 6 samples.

Results

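Tumour necrosis factor, the death receptors and the proteins that read them out were followed in LPS-treated macrophages through 10 genes chosen by name, namely the ligands Tnf, Fasl and Tnfsf10, the receptors Tnfrsf1a, Tnfrsf1b and Fas, and the intracellular genes Fadd, Cflar, Tradd and Ripk1. Features of the array whose annotation gave 1 gene symbol were taken for the gene of that symbol. This gave 13 features for 8 of the 10 genes, out of 10698 genes with a feature of their own. No feature was matched to Tradd or Ripk1, the adaptor and the kinase that bind the TNF receptor's death domain, by symbol, synonym, gene identifier or RefSeq transcript, and both were not analysed here.

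Treated cells were RAW 264.7 mouse macrophages cultured for 8 h with 100 ng/ml of lipopolysaccharide (LPS) plus 100 pM of LPS-binding protein, and the other group was the same line left untreated for 8 h. LPS is the Gram-negative cell wall component sensed by Toll-like receptor 4, and LPS-binding protein is a serum protein that hands LPS to CD14. RNA of both groups was hybridised together on 6 two-colour arrays, in 3 numbered sets, and in each set 1 array had the treated RNA in Cy5 and the other had it in Cy3. Nothing in the labels states that each set came from its own culture, and the p-values therefore cover the spread from set to set, part or all of which may be technical. RAW 264.7 is a single transformed line, which the labels in places also write as 264.4.

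TNF is made as a membrane protein by activated macrophages and is cut loose by the protease ADAM17. Its receptor TNFR1 carries a death domain and can either raise a survival and inflammatory signal through TRADD, RIPK1 and ubiquitin ligases, or pass to a second complex that holds FADD and caspase-8. TNFR2 has no death domain, and Fas and the TRAIL receptor recruit FADD directly. The protein of Cflar, cFLIP, resembles caspase-8 and holds it back.

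Of the 8 genes measured, 5 were higher in treated than in untreated cells, 1 was lower and 2 did not pass the test. Fas, the death receptor for Fas ligand, was 6.58-fold higher, Tnf 3.70-fold, Cflar 2.84-fold, Tnfrsf1b 2.50-fold and Tnfrsf1a 1.59-fold. Fadd, the adaptor that Fas uses, was 1.21-fold lower, though only 1 of its 2 features passed the threshold. The ligand genes Fasl and Tnfsf10, which encode Fas ligand and TRAIL, had mean ratios close to 1. Single arrays ran from -0.72 to 0.54 on the log2 scale for Tnfsf10, and Fasl was measured on only 4 arrays. In RNA from a whole culture, a change per cell and a change in the share of cells that express a gene cannot be told apart. Among all 10088 genes tested the threshold was passed by 34.2%, with 17.3% higher and 16.8% lower, and 2.85% were both past the threshold and more than 2-fold higher, as Fas, Tnf, Cflar and Tnfrsf1b were. Without set 3 the share of all genes that passed was 21%, or 2009 of 9556, with 11.3% higher and 9.68% lower. The test was the moderated test of limma on 3 set means per gene, with Benjamini-Hochberg adjustment over all genes and a threshold of 0.05.

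Every sign in these results rests on reading the deposited ratio as Cy5 over Cy3, which the table does not state. It is a likely reading, because control is the labels' word for the RNA in Cy3 and test their word for the RNA in Cy5. Under the opposite reading each rise would be a fall of the same size, and a share of genes standing higher would be the share standing lower. The cytokine genes Ifnb1, Il1b and Il6, picked after their values were seen, were 19.7-, 14.4- and 9.56-fold higher in treated cells under the reading used. The opposite reading would make them lower by as much. Deposited values of arrays with opposite dyes were negatively correlated over features, with r between -0.77 and -0.40, which shows that they had not been turned to a common direction but not which dye was the numerator. Ratios were then turned to treated over untreated. Turned ratios correlated with r of 0.72 to 0.90 across genes between arrays of the same orientation and 0.60 to 0.83 between opposite ones, where genes are not independent replicates. The table holds ratios and no intensities, so neither the level of a gene nor its signal over background can be read, and the number of arrays limits the precision. For that reason the label of macrophage could be set only against ratios. Of 8 macrophage markers tested, 4 were higher and 2 lower in treated cells. Of 13 markers of T, B, NK, fibroblast and epithelial cells 1 was higher and 0 were lower. Over all genes tested 34.2% passed. These counts tell how markers changed, and not which cells were present.

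Promoter stretches from RefSeq (GRCm38.p6) are shown for genes whose ratio changed and whose window held a motif that was searched. Windows ran from 250 bases before to 50 bases after an annotated transcript start and were searched on both strands for TATAAA, the TATA box core, for GAAA repeated after a gap of NN, the core of the interferon-stimulated response element that interferon regulatory factors bind, and for the NF-kappaB motif. Capitals mark the matches, and each stretch is written 5′ to 3′ on the gene's strand. The Tnf stretch (chr17:35201978-35202157, minus strand) and the Tnfrsf1b stretch (chr4:145246841-145247020, minus strand) cover 150 bases before and 30 after the start. For Cflar, where another transcript starts upstream, 30 bases around the match are given (chr1:58711487-58711516, plus strand).
Tnf: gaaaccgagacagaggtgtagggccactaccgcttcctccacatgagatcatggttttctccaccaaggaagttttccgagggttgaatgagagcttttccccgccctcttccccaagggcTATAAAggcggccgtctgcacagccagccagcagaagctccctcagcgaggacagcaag
Tnfrsf1b: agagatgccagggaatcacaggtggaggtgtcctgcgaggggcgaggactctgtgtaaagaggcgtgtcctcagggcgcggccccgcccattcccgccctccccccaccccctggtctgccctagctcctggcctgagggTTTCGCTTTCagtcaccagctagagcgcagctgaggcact
Cflar: ccacgtctgcTTTCGGTTTCtgggcgtctc

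In Tnf the TATAAA match began 29 bases before the start. In Tnfrsf1b a match to the response element core on the opposite strand ended at the base before the start, and in Cflar one lay 7 to 16 bases into the transcript. Of the 10 windows of 9 genes found in the table, 3 held the response element core (Tnfrsf1b, Cflar and 1 window of Ripk1), against 3.44% of all 32851 windows. TATAAA was held by 2 of the 10 (Tnf and Cflar, in Cflar upstream of the printed stretch), against 13.6% of all windows, and the NF-kappaB motif by 0 of the 10, against 8.46%. A match is a string of letters and was not tested as a binding site, and the absence of one says only that these letters are not in the window.

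**Figure D1:**
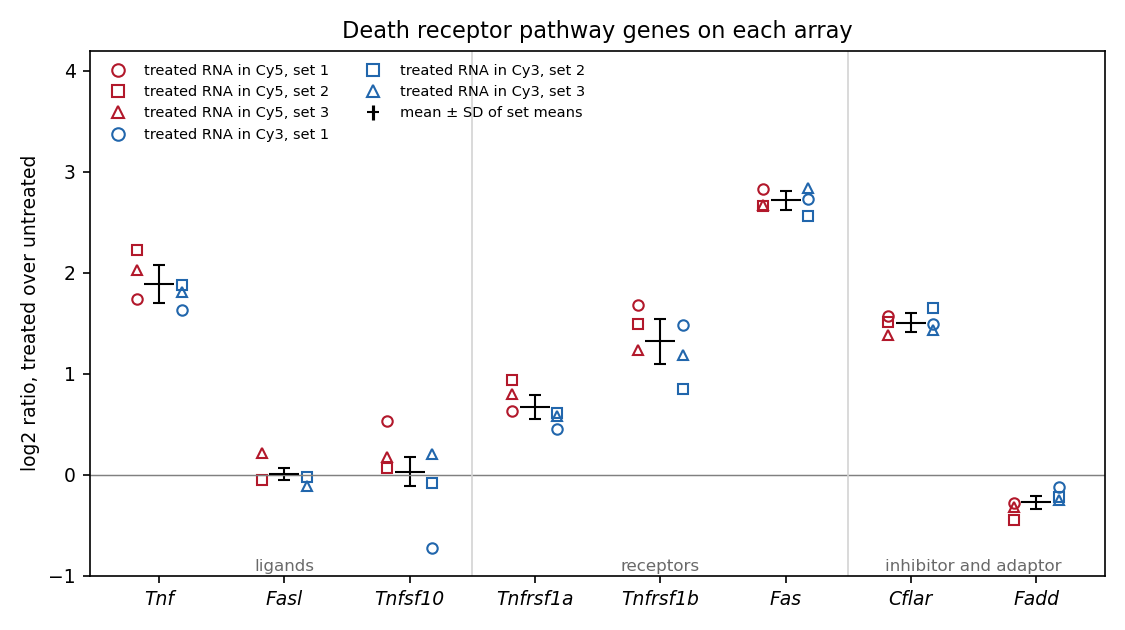
The log2 ratio of treated over untreated cells (vertical axis) is plotted for each measured gene on each array, with circles, squares and triangles for sets 1, 2 and 3, red for treated RNA in Cy5, blue for treated RNA in Cy3, and black bars for the mean ± SD of the set means (3 sets, 2 for Fasl). Tnf, Tnfrsf1a, Tnfrsf1b, Fas and Cflar lie above 0 on 6 of 6 arrays and Fadd lies below 0 on 6 of 6, while Fasl and Tnfsf10 lie on both sides of 0.

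Among the ligands, Tnf, the founding member of the family, had log2 ratios of 1.74, 2.22 and 2.03 in sets 1, 2 and 3 with treated RNA in Cy5. On the dye-swapped arrays the values of Tnf were 1.63, 1.88 and 1.81. All 6 arrays were high, and set 1 was the lowest in each orientation. The set means averaged 1.89 ± 0.19 (SD, n = 3 sets), a 3.70-fold rise with a 95% interval of 3.24 to 4.22 and an adjusted p of 2.70e-05 in limma. Only 1.16% of the genes tested had a higher mean log2 ratio than Tnf.

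The 3 features of Tnf did not give the same ratio. The feature annotated with the sequence X02611 had the narrowest range, 2.05 to 2.20 over the 6 arrays, and a mean of 2.11 ± 0.064, or 4.31-fold. The NM_013693 feature averaged 1.96 ± 0.090, with values of 2.03 to 2.32 where treated RNA was in Cy5 and of 1.72 to 1.79 where it was in Cy3, so that its orientations did not overlap. The M38296 feature averaged 1.60 ± 0.47. It had values of 1.07 and 1.04 on the 2 arrays of set 1, and 1.65 to 2.15 on the other 4, so the low place of Tnf in set 1 came from this feature. Each of the 3 features passed the threshold in the fit over single features (limma's adjusted p of 2.74e-06, 4.45e-06 and 0.000760), as did 32.7% of 14343 features. Without the M38296 feature, an alternative chosen after seeing the data, Tnf rose by 2.03 ± 0.074 on the log2 scale (adjusted p of 4.42e-06 in limma). A further 2 features that carry several symbols including Tnf were left out.

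Fasl encodes the ligand of Fas, best known from cytotoxic T and NK cells. Its single feature was listed at exactly 0 on both arrays of set 1, which was read as not measured, so the fit used sets 2 and 3. Its log2 ratios were -0.049 and 0.21 with treated RNA in Cy5, and -0.020 and -0.11 with treated RNA in Cy3. The values straddled 0. The mean was 0.0085 ± 0.061 (SD, n = 2 sets), with a 95% interval of -0.15 to 0.17 and an adjusted p of 0.933 in limma.

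Tnfsf10 encodes TRAIL, the ligand of the death receptor that Tnfrsf10b encodes in mouse. It had log2 ratios of 0.54, 0.066 and 0.17 in sets 1 to 3 with treated RNA in Cy5. The values with treated RNA in Cy3 were -0.72, -0.077 and 0.20. The highest and the lowest of its 6 values thus came from the 2 arrays of set 1, whose mean was -0.093. The mean of the set means was 0.030 ± 0.14 (SD, n = 3 sets), with a 95% interval of -0.13 to 0.19 and an adjusted p of 0.766 in limma. That interval rests on set means alone and leaves out the spread between the 2 arrays of a set.

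Among the receptors, Fas had the largest change of the 8 genes. Its log2 ratios were 2.83, 2.66 and 2.67 in sets 1, 2 and 3 with treated RNA in Cy5. They were 2.73, 2.56 and 2.84 with treated RNA in Cy3. The arrays spanned only 2.56 to 2.84, and the orientation means of 2.72 and 2.71 were close. The mean was 2.72 ± 0.093 (SD, n = 3 sets), a 6.58-fold rise, with a 95% interval of 2.59 to 2.85 on the log2 scale (limma's adjusted p of 2.43e-06), and 0.555% of the genes tested stood higher. The agreement between arrays is that of a mean over 2 features that differed from each other. The M83649 feature averaged 3.13 ± 0.18, or 8.78-fold, and the NM_007987 feature 2.30 ± 0.19, or 4.93-fold. M83649 was the higher of the 2 on 6 of 6 arrays, by 0.45 to 1.25. Set 3 had the highest set mean for M83649 (3.34) and the lowest for NM_007987 (2.17), so that the deviations partly cancelled in the gene's mean.

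Tnfrsf1a encodes TNFR1, the TNF receptor with a death domain. It had log2 ratios of 0.64, 0.94 and 0.80 in sets 1 to 3 with treated RNA in Cy5. The values were 0.46, 0.61 and 0.58 with treated RNA in Cy3. Values with treated RNA in Cy5 all lay above those with treated RNA in Cy3, and set 1 was the lowest in each orientation, as for Tnf. The mean was 0.67 ± 0.12 (SD, n = 3 sets), a 1.59-fold rise with a 95% interval of 1.44 to 1.76 (limma's adjusted p of 0.000458). Its features X57796 and NM_011609 averaged 0.72 ± 0.089 and 0.62 ± 0.14, a difference of 0.092 ± 0.062.

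Tnfrsf1b encodes TNFR2, the TNF receptor without a death domain, and is known to bind TRAF2. It had log2 ratios of 1.68, 1.49 and 1.24 in sets 1, 2 and 3 with treated RNA in Cy5. On the dye-swapped arrays they were 1.48, 0.85 and 1.19. Its set 1 arrays were the highest in each orientation, where those of Tnf and Tnfrsf1a were the lowest. The mean over the sets was 1.32 ± 0.23 (SD, n = 3 sets), a 2.50-fold rise with a 95% interval of 2.15 to 2.90 (limma's adjusted p of 0.000170).

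By gene mean, the receptors differed in the size of their rise. The log2 ratio of Tnfrsf1b exceeded that of Tnfrsf1a on 6 of 6 arrays, by 0.24 to 1.04 and by 0.65 ± 0.34 on average (SD, n = 3 sets). Fas exceeded Tnfrsf1b on 6 of 6 arrays, by 1.40 ± 0.18, and Tnf by 0.83 ± 0.27. These pairs were picked after their values were seen, and with 3 sets an exact two-sided permutation test of such a difference cannot give a p below 0.25. The differences are between ratios of change, and say nothing of which gene was more abundant. Features of the same gene also differed, by 0.83 ± 0.33 on 6 of 6 arrays for Fas, and Tnfrsf1b has only 1 feature. The gap between Fas and Tnf depended on the features compared. The NM_007987 feature of Fas was below the X02611 feature of Tnf in set 3 with treated RNA in Cy5 (2.05 against 2.10). It was also below in set 2 with treated RNA in Cy3 (1.98 against 2.16), and above on the remaining arrays. Whether a gap between genes exceeds that between features was not tested.

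Downstream of the receptors, the gene means of Cflar and Fadd moved in opposite directions, though only 1 of the 2 Fadd features passed the threshold. Cflar, the caspase-8 inhibitor gene, had log2 ratios of 1.57, 1.51 and 1.38 in sets 1 to 3 with treated RNA in Cy5. They were 1.49, 1.66 and 1.43 with treated RNA in Cy3. The arrays were all high, within 1.38 to 1.66, and the orientation means of 1.49 and 1.53 overlapped in their values. The mean was 1.51 ± 0.092 (SD, n = 3 sets), a 2.84-fold rise with a 95% interval of 2.60 to 3.11 (limma's adjusted p of 1.52e-05), and 1.56% of the genes tested stood higher. Its single feature cannot show which transcript form of Cflar changed.

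Fadd, the adaptor that links Fas and the TRAIL receptor to caspase-8, had log2 ratios of -0.28, -0.45 and -0.32 in sets 1 to 3 with treated RNA in Cy5. They were -0.12, -0.22 and -0.25 with treated RNA in Cy3. All 6 values were below 0, and those with treated RNA in Cy5 were the lower ones. The mean was -0.27 ± 0.067 (SD, n = 3 sets), or 1.21-fold lower in treated cells, with an adjusted p of 0.00727 in limma. Without set 3 the log2 ratio was -0.27 (adjusted p of 0.0613), and with only the arrays that had treated RNA in Cy3 it was -0.20 (adjusted p of 0.0833), neither of which passed.

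The fall of Fadd also depended on the feature. The U50406 feature averaged -0.45 ± 0.069 and lay between -0.56 and -0.31 on every array (limma's adjusted p of 0.00124 over all features). The NM_010175 feature averaged -0.10 ± 0.075 (adjusted p of 0.199), and its values ran from -0.34 to 0.064, crossing 0. It was the higher of the 2 on 6 of 6 arrays, by 0.34 ± 0.051. Set against each other, the log2 ratio of Cflar exceeded that of Fadd on 6 of 6 arrays, by 1.61 to 1.96, and that of Fas exceeded it by 2.99 ± 0.048. These 2 pairs too were picked after their values were seen.

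**Figure D2:**
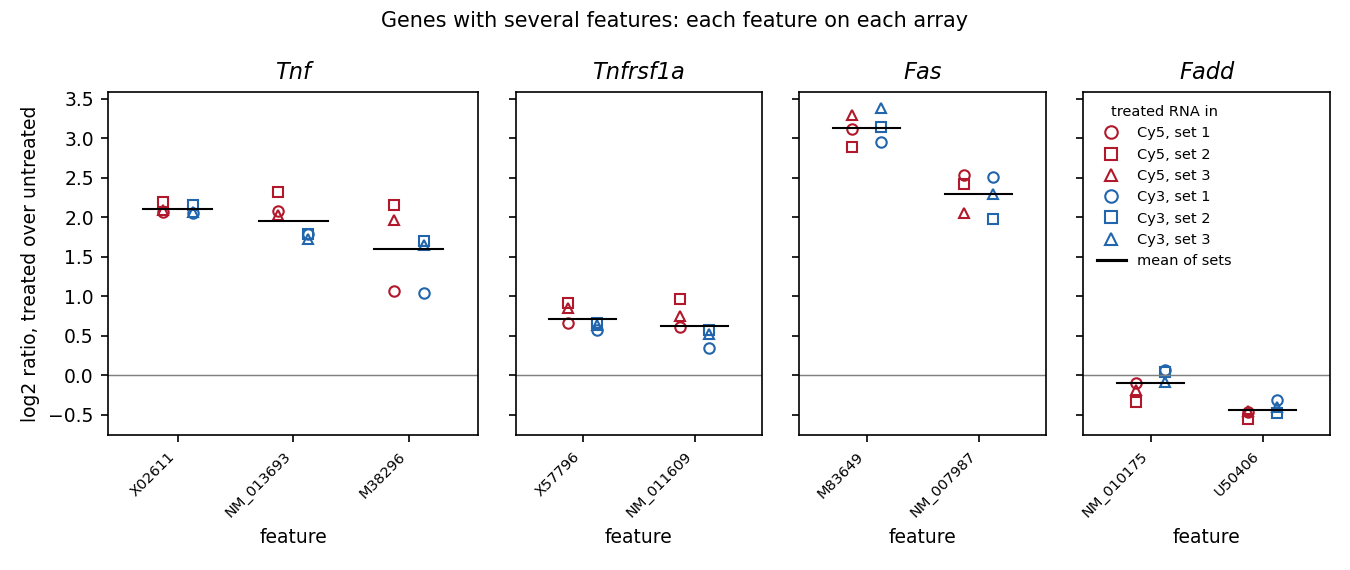
The log2 ratio of treated over untreated cells (vertical axis) is plotted for every feature, named by its annotated accession (horizontal axis), of the 4 genes with several features, with symbols and colours for sets and orientations as in the plot of genes and a black line for the mean of the sets. The Fas features stand apart at 3.13 and 2.30, the M38296 feature of Tnf is low on both set 1 arrays, and of the Fadd features only U50406 lies wholly below 0.

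The orientations were compared in a fit over the 6 arrays with a dye term. None of the 8 genes passed the threshold for that term in limma, with or without the set number as a block where it could be fitted, against 4.06% of all genes without it, while Tnfrsf1a had an unadjusted p of 0.0476 in the same fit. The log2 ratio of Tnfrsf1a was 0.79 ± 0.15 with treated RNA in Cy5 and 0.55 ± 0.081 on the dye-swapped arrays (SD, n = 3 arrays each), a difference of 0.24 with a 95% interval of 0.00353 to 0.478 (limma's adjusted p of 0.176). Tnfsf10 had the largest estimated difference, 0.46, with an interval of -0.15 to 1.07. For Fas and Cflar the differences were 0.0089 (interval -0.23 to 0.25) and -0.038 (interval -0.26 to 0.18).

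**Figure D3:**
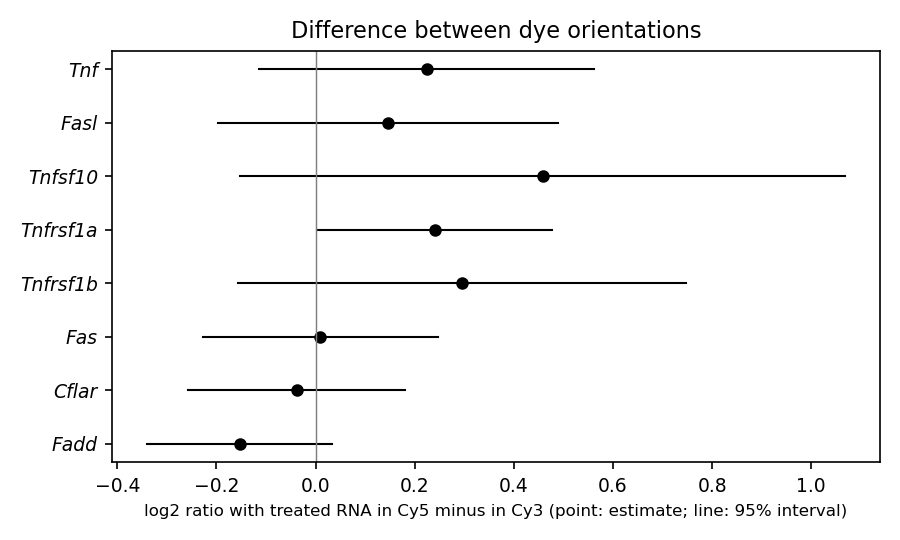
The difference in log2 ratio between arrays that carried treated RNA in Cy5 and those that carried it in Cy3 (horizontal axis) is plotted for each gene as a point with its 95% interval. Fas and Cflar sit near 0, and the interval of Tnfsf10 is the widest, from -0.15 to 1.07.

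Ordered by mean ratio, the genes ran from Fas (2.72) through Tnf (1.89), Cflar (1.51), Tnfrsf1b (1.32) and Tnfrsf1a (0.67) to Tnfsf10 (0.030), Fasl (0.0085) and Fadd (-0.27). Among neighbours in this order, the 95% intervals of Cflar (1.38 to 1.64) and Tnfrsf1b (1.10 to 1.54) overlapped, as did those of Tnfsf10 and Fasl. Those of the other neighbours did not, although Tnf (from 1.70) and Cflar (to 1.64) were close. Fasl (from -0.15) and Fadd (-0.39 to -0.15) were close too. The order is descriptive, because overlap of such intervals is not a test of the difference between genes measured on the same sets. The intervals also leave out the spread between features. The M38296 feature of Tnf averaged 1.60, inside the interval of Cflar, while the other Tnf features averaged 2.11 and 1.96. Both Fas features, at 3.13 and 2.30, lay outside the interval of Fas (2.59 to 2.85). Fas ranked 57 and Fadd 9002 of the 10088 genes. The median of the 8 was 1.00, beside a median of -0.0076 over all genes tested. The genes were chosen with earlier results of these data known. Neither this median nor the count that passed is therefore a test of the group.

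**Figure D4:**
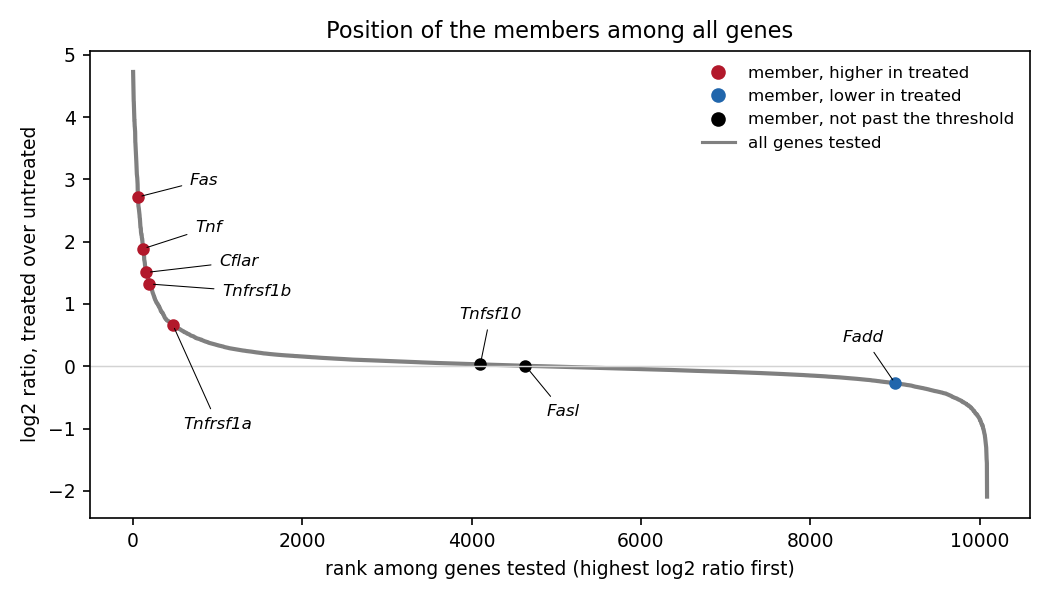
Each gene's mean log2 ratio (vertical axis) is plotted against its rank among all 10088 genes tested (horizontal axis, highest ratio first), with the grey curve for all genes, red points for genes higher, a blue point for the gene lower in treated cells and black points for genes that did not pass the threshold. Fas, Tnf, Cflar, Tnfrsf1b and Tnfrsf1a lie on the steep left end, Tnfsf10 and Fasl in the flat middle, and Fadd at rank 9002.

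The genes nearest in pattern were sought by the Euclidean distance between 6 turned log2 ratios, among 8897 other genes measured on 6 arrays. Nearest to Tnf were Marcksl1, Dusp2 and Atf3, at distances of 0.14, 0.33 and 0.36 and with mean log2 ratios of 1.87, 1.97 and 1.96. Nearest to Fas were C3ar1, Sp100 and Tor3a, at distances of 0.42, 0.52 and 0.55 and with means of 2.73, 2.84 and 2.58. All these genes share their 6 arrays, so that a small distance mostly means a like mean ratio.

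Genes around the pathway were counted in 5 lists, as a description beside the 34.2% of all genes that passed. Of 13 other ligands of the TNF family, 4 were higher and 2 lower in treated cells, with a median log2 ratio of -0.029. The highest was Ltb, a subunit of lymphotoxin, at 0.88, and the lowest Tnfsf14 (LIGHT) at -0.58. Of 20 other receptors of the family, 6 were higher and 2 lower, with a median of 0.089. Their range ran from -0.72 for Tnfrsf18 (GITR) to 3.76 for the costimulatory receptor Cd40, the one gene among the family's measured receptors above Fas. The genes that end these ranges were picked out after their values were seen, and each passed the threshold in limma. Tnfrsf10b, the receptor for TRAIL, had a log2 ratio of 0.093 ± 0.12 (limma's adjusted p of 0.286).

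In the TNF receptor signalling complex, which holds the TRAF adaptors, ubiquitin ligases and kinases, 7 of 16 genes were higher and 2 lower, with a median of 0.14 and a range of -0.62 (Tab1) to 1.33 (Traf1). Among 17 death execution genes 4 rose and 1 fell, with a median of 0.086. Those that rose most were Daxx (2.43 ± 0.067), which encodes a protein found as a Fas partner, Mlkl (2.34 ± 0.030), the effector of necroptosis, and Casp8 (0.96 ± 0.11), the protease that FADD recruits and cFLIP restrains. Ripk3, the kinase that acts on MLKL, had a log2 ratio of 0.074 ± 0.017 (limma's adjusted p of 0.249). The member that fell was Casp8ap2, at -0.32 ± 0.095. Genes named from both lists were picked after their values were seen.

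Of 14 genes for TNF mRNA control, shedding and release, 8 were higher and 3 lower, with a median of 0.18. Zfp36, whose product tristetraprolin promotes decay of Tnf mRNA, was the highest at 2.05 ± 0.10, and Adam17, the protease that releases TNF, rose by 0.58 ± 0.078. Zfp36l2 was the lowest at -0.40 ± 0.15, and Adam10 and Frmd8 were lower too, at -0.24 ± 0.11 and -0.20 ± 0.081. Genes named from this list were picked after their values were seen. Without set 3, where 21% of 9556 genes tested passed, the counts higher and lower were 2 and 1 of 12 for ligands, 5 and 2 of 19 for receptors, 6 and 2 of 15 for the signalling complex, 3 and 1 of 16 for death execution and 6 and 1 of 14 for TNF mRNA control, shedding and release.

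**Figure D5:**
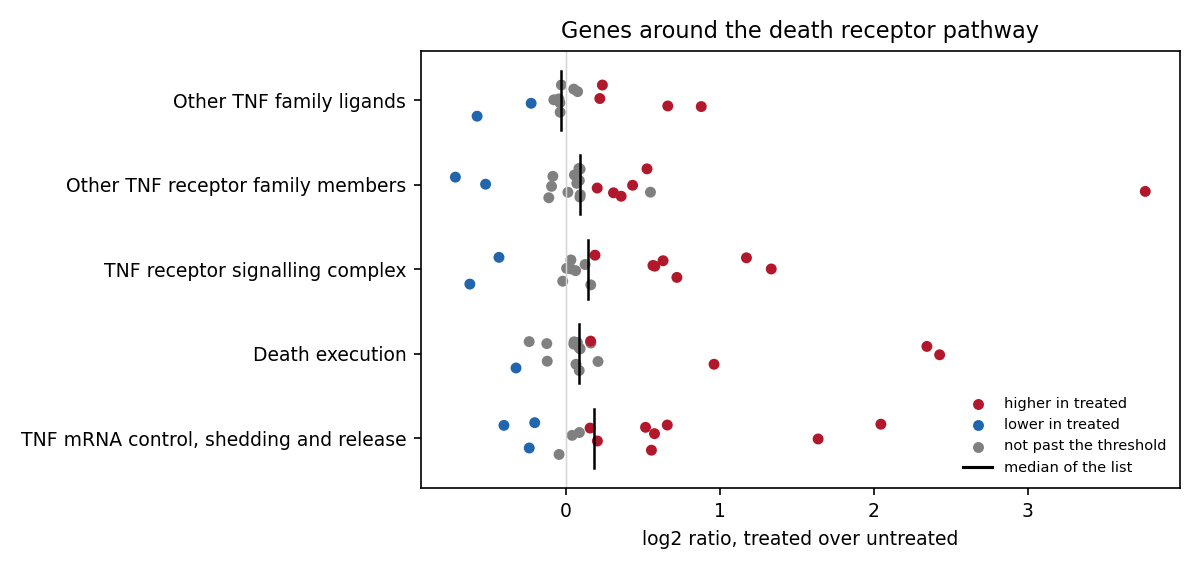
The log2 ratio of treated over untreated cells (horizontal axis) is plotted for each measured gene of the 5 lists, with red points for genes higher, blue for genes lower, grey for genes that did not pass the threshold, and a black line for each list's median. The medians lie between -0.029 and 0.18, and single genes such as Cd40 at 3.76 lie far to the right.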

How the data were processed

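The table deposited by the authors gives for each array a log2 ratio of every feature, where base 2 is inferred from a largest value equal to log2 of 100. How the arrays were scanned, corrected for background and normalized is not given in the sources used here. Of 16281 features, 13738 had 1 gene symbol in the platform annotation, 52 had several and 2491 had none. By gene identifier 13694 matched RefSeq (GRCm38.p6), with 0 symbols changed. All per-sample columns matched a sample.

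The sign was turned on arrays whose treated RNA was in Cy3, and values of exactly 0 (1328 to 2262 features per array) were treated as not measured. A set value needed both arrays, so that a dye effect cancels. Genes were averaged over features measured on 6 arrays, or, failing that, over features with at least 2 set values (871 genes had fewer than 3). The test of set means against 0 used limma 3.58.1 (lmFit, eBayes) in R 4.3.3, and the procedure was tested on simulated data. Deviations of same-numbered arrays from their orientation's mean correlated negatively after turning (r of -0.26 to -0.086), so the numbers were used as pairs only because the labels share them. The genes, lists and naming rule were chosen with earlier results of these data known. The rule names all members, the 3 genes nearest Tnf and Fas in pattern, and of the lists only genes that a result turns on. Further genes of the lists are named in the text outside this rule, after their values were seen.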

Additional observations from a re-analysis of the deposited data

How the results depend on the processing

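Tnf, Tnfrsf1a, Tnfrsf1b, Fas and Cflar stayed higher in treated cells and past the threshold in limma in each of the 11 alternative settings: 6 arrays with a dye term without and with a replicate block, zeros kept, median centring, quantile normalization, each set left out, each orientation alone, and the feature of smallest SD. Their log2 ratios ran from 1.77 to 2.11, 0.55 to 0.79, 1.17 to 1.47, 2.68 to 3.13 and 1.47 to 1.56. Fadd stayed lower in all 11, from -0.45 with the feature of smallest SD to -0.20, and did not pass with only the Cy3-treated orientation (-0.20, adjusted p of 0.0833) or without set 3 (adjusted p of 0.0613). With a set left out it ran from -0.31 to -0.24. Tnfsf10 did not pass in any and changed sign with only the Cy3-treated orientation (-0.20) and without set 3 (-0.050), with a range of -0.050 to 0.092 over sets left out. Fasl changed sign with only the Cy3-treated orientation (-0.064), and could not be fitted with the replicate block or without set 2 or set 3, where too few values were left. The cause of these changes was not tested. With the set number as a replicate block 3600 genes passed, against 3449 without it in the reported fit and 3789 with 6 arrays as separate replicates, and the block changed no call of the 7 genes it could be fitted for. Leaving out 1 set gave 2009 to 3395 genes, the lowest without set 3 (21% of 9556 tested, against 34.2% of 10088). No intensities were used, so signal over background could not be weighed.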

Other observations

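Genes of the lists that the text has not described were picked here after their values were seen. Lta and Ltb, the lymphotoxin genes that lie on either side of Tnf in the mouse genome, were both higher in treated cells, with log2 ratios of 0.24 ± 0.080 and 0.88 ± 0.084 (SD, n = 3 sets; limma's adjusted p of 0.0150 and 0.000104), beside 1.89 ± 0.19 for Tnf. Tnfrsf22 and Tnfrsf23, which encode decoy receptors for TRAIL in mouse, rose by 0.36 ± 0.093 and 0.53 ± 0.045 on the log2 scale (limma's adjusted p of 0.00364 and 0.000454). Tnfrsf10b and Tnfsf10 did not pass the threshold. Whether the decoy receptor genes differ from Tnfrsf10b or Tnfsf10 was not tested. Tnfrsf25, a receptor with a death domain, stood at -0.52 ± 0.13 (adjusted p of 0.00150 in limma).

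Among the genes that act on the TNF receptor complex, Tnip1, whose product works with the ubiquitin editor A20, rose by 1.17 ± 0.073, Tnfaip3, the A20 gene, by 0.72 ± 0.14 and Birc3, a cIAP ubiquitin ligase gene, by 0.57 ± 0.10. Birc2, the other cIAP gene, had a log2 ratio of 0.032 ± 0.11 (limma's adjusted p of 0.712). Whether Birc3 and Birc2 differ was not tested.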
